A study of Mus musculus with 24 samples.

Results

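miR-31 was examined through its single entry, mir-31, among the 510 miRNA entries of the deposited count table, in all 24 small RNA libraries of a mouse series on mammary tumor progression. The tumor samples came from female PyMT mice on the FVB background that carried 1 copy of the MMTV-PyMT transgene, in which the mouse mammary tumor virus promoter drives the polyoma virus middle T oncogene in mammary epithelium. Normal mammary glands came from FVB females of the same age without the transgene. Tumor tissue was taken at week 6 as hyperplasia, at week 8 as adenoma with mammary intraepithelial neoplasia, at week 10 as early carcinoma and at week 12 as late carcinoma, with 3 mice per group at each week. The tissue was not sorted, and the study's methods state that the hyperplasia and adenoma samples still contained normal gland cells. Age and stage rise together in these mice, so the effects of a week and of a stage cannot be told apart within the tumors.

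miRNAs are short RNAs that guide Argonaute proteins to messenger RNAs, mostly by pairing of the seed, the stretch of bases 2 to 8, with a site in the 3′ untranslated region, and lower the output of the bound transcript. miR-31 is the sole member of its seed family in the mouse. In human breast cancer cells it is known as a suppressor of invasion and metastasis through targets such as RHOA and the integrin subunit ITGA5, while in mouse mammary tissue it has also been described as a promoter of stem cell expansion and tumor growth. The series allows its level to be followed beside normal glands of the same age from hyperplasia to late carcinoma.

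Both mature arms are shown because the count table gives a single value per miRNA name, without naming an arm. The sequences are those of RefSeq on GRCm38.p6, read 5′ to 3′, with the seed in capitals.
miR-31-5p: aGGCAAGAugcuggcauagcug
miR-31-3p: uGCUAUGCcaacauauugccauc
The 5p arm has 22 bases and lies on the minus strand of chromosome 4 at chr4:88910614-88910635, and the 3p arm has 23 bases and lies at chr4:88910577-88910599. Among the 1679 mature mouse names of the RefSeq table, 0 others had the seed of either arm. The 106-base hairpin is shown next, with the mature arms in capitals, since the count table does not say which arm its reads came from.
Mir31 hairpin: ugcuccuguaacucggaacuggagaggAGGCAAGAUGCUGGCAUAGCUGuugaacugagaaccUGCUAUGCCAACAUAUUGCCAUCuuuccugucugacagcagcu
In mm9, the build named in the submitters' processing notes, the identical sequence lies on the minus strand at chr4:88556461-88556566. It overlapped 0 genes of the annotation used there, and transcripts missing from that annotation were not examined. The nearest protein-coding gene on the side of lower coordinates was the interferon gene Ifne, 30356 bp away. On the other side the nearest was Mtap, 226460 bp away, followed by the cell cycle inhibitor genes Cdkn2a at 363811 bp and Cdkn2b at 395632 bp.

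Normal libraries held 1626022 to 3931375 counts each and tumor libraries 1032241 to 2213972. After the filter on low counts, 237 miRNAs were tested. miR-31 passed with 261 counts or more in every library, far from the detection floor of 3 counts, which corresponded to 0.763 to 2.91 CPM, the count scaled to library size, before normalization. The libraries were compared with lists of cell type marker miRNAs. The summed level of the 11 epithelial miRNAs, among them the miR-200 family, was 57183 to 98544 CPM across tumors and 15360 to 30667 CPM across normal glands. The 5 fibroblast and smooth muscle miRNAs summed to 70027 to 136934 CPM in tumors against 158608 to 276050 CPM in normal glands. Endothelial miR-126 stood at 6568 to 18252 CPM in tumors and at 20497 to 37461 CPM in normal glands. Every tumor library was thus higher in epithelial and lower in stromal and endothelial miRNAs than every normal library. Skeletal muscle miRNAs varied most between mice, from 39.9 to 18074 CPM in tumors and from 89.0 to 89322 CPM in normal glands. The erythroid list spanned 2060 to 13679 CPM in tumors and 7797 to 34556 CPM in normal glands. The adipocyte list spanned 3046 to 15079 CPM in tumors and 4661 to 25144 CPM in normal glands, and the leukocyte list 1198 to 1868 CPM against 1681 to 3241 CPM. Pooled over the weeks, ranges of the muscle, erythroid, adipocyte and leukocyte lists overlapped between tumors and normal glands. Within weeks, all tumor sums lay below all normal sums for the leukocyte list at weeks 8, 10 and 12. The same was true of the muscle list at weeks 8 and 12. The adipocyte list was apart in this way at weeks 10 and 12, and the erythroid list at week 12. Members of a list did not all share its direction. At week 8 leukocyte miR-150 averaged 256 CPM in tumors and 1206 CPM in normal glands, while miR-142 averaged 1537 and 1550 CPM. At week 10 adipocyte miR-378 averaged 3478 and 7993 CPM, while miR-193b averaged 505 and 400 CPM. Of single tested miRNAs, 51.9%, 67.9% and 62.0% had no overlap in either direction at weeks 8, 10 and 12. The leukocyte miRNA miR-223 was at 0 counts in every library, while leukocyte miR-142 averaged 1209 CPM in the week 6 tumors. Whether the counting captured miR-223 was not tested. In such bulk tissue a different number of cells of a type cannot be told apart from a different amount of the RNA per cell.

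miR-31 was expressed at a modest level in normal mammary glands. CPM values are normalized by TMM over all libraries. At week 6 the 3 normal libraries stood at 379, 231 and 145 CPM. At week 8 they stood at 213, 241 and 150 CPM. Both groups spread from about 150 CPM upward, and the widest spread among the normal glands was at week 6, where the SD of the log2 level was 0.69 against a median of 0.32 over all tested miRNAs. At week 10 the normal libraries stood at 345, 233 and 370 CPM. At week 12 they stood at 322, 263 and 345 CPM. The range of week 6 overlapped those of the other weeks, while all 3 libraries of week 12 were above those of week 8. The normal week 6 library with the highest miR-31, 379 CPM, also carried 87485 CPM of skeletal muscle miRNAs, while the lowest, 145 CPM, carried 93.6 CPM, and the part of muscle tissue in this spread was not tested.

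The tumors were higher in every library. At week 6 the 3 tumor libraries stood at 1682, 1992 and 1534 CPM. At week 8 they stood at 3052, 4043 and 1701 CPM. The hyperplasia samples lay close together, whereas the adenoma samples held both the highest value of the series and a value inside the hyperplasia range. At week 10 the tumor libraries stood at 2669, 3075 and 3143 CPM. At week 12 they stood at 3338, 3791 and 3671 CPM. The 3 late carcinomas lay within 1.14-fold of each other. Their SD on the log2 scale was 0.10 against a median of 0.26 over the tested miRNAs, and 88.6% of the tested miRNAs had a larger SD in that group.

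**Figure D1:**
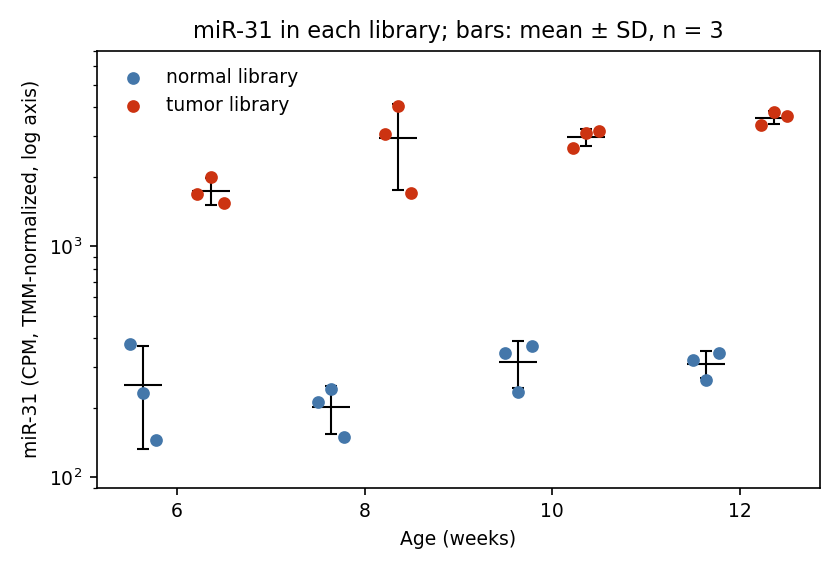
Normalized level of miR-31 (CPM, log axis) in each of the 24 libraries by age in weeks. Points are single libraries of tumors or normal glands, and the crosses give the mean and SD of each group of 3. All tumor points, from 1534 CPM upward, lie above all normal points, which reach 379 CPM, and the week 8 tumors are the most spread of the tumor groups.

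Expressed as a share of all counts in a library, miR-31 made up 0.0160% to 0.0411% of the normal libraries, with a median of 0.0272%, and 0.157% to 0.384% of the tumor libraries, with a median of 0.298%. At these depths the counting error was small. The lowest share, in the normal gland of week 6 replicate 3, had an exact Clopper-Pearson 95% interval of 0.0147% to 0.0174%, and the lowest tumor share, in week 6 replicate 3, had 0.151% to 0.163%. These intervals cover counting error only, since amplified reads are not independent molecules. Ordered by abundance within each library, miR-31 ranked between 90 and 118 in normal glands and between 36 and 57 in tumors. The lowest tumor library was 4.05-fold above the highest normal library. Such a gap of all 12 tumor libraries above all 12 normal libraries was seen for 44 of the 237 tested miRNAs, or 18.6%.

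miR-31 was over-expressed in the tumors at every week by the quasi-likelihood test of edgeR, with p-values adjusted over the 237 miRNAs after Benjamini and Hochberg. In hyperplasia at week 6 the mean was 1736 ± 234 CPM (SD, n = 3), and that of the normal glands was 251 ± 118 CPM. The difference was 2.79 on the log2 scale (SE 0.36), or 6.91-fold, with an edgeR adjusted p of 0.00108. At week 6, 29.1% of the tested miRNAs were called higher in tumors. In adenoma at week 8 the mean was 2932 ± 1176 CPM against 201 ± 46.8 CPM. The log2 difference was 3.83 (SE 0.38), or 14.2-fold, with an edgeR adjusted p of 0.00122, and 21.9% of the tested miRNAs were called higher. Thus miR-31 rose well above its normal level in both premalignant stages, before carcinoma.

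In early carcinoma at week 10 the mean was 2962 ± 256 CPM against 316 ± 72.9 CPM in normal glands. The log2 difference was 3.23 (SE 0.20), or 9.35-fold, with an edgeR adjusted p of 3.68e-05, beside 32.9% of miRNAs called higher. In late carcinoma at week 12 the mean was 3600 ± 235 CPM against 310 ± 42.0 CPM. The log2 difference was 3.52 (SE 0.23), or 11.5-fold, with an edgeR adjusted p of 1.11e-04, beside 29.1% called higher. The tumor and normal libraries did not overlap at any week, a separation in either direction that 68.8%, 51.9%, 67.9% and 62.0% of the tested miRNAs had at weeks 6, 8, 10 and 12. miR-31 was 1 of 44 miRNAs, or 18.6% of those tested, that were called higher in tumors at all 4 weeks. In 9 libraries the skeletal muscle miRNAs summed to over 1000 CPM, a limit chosen after seeing the data. None of them was from week 8. Without them the log2 difference at week 10 was 3.26 with 2 libraries left in each group. At week 12 it was 3.32 with 3 tumor libraries and a single normal library, which the edgeR fit of all groups assumes to vary like the others, and both values passed the edgeR threshold. No value was left for week 6, since all 3 hyperplasia libraries were among the 9.

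The sequencing lanes gave the same direction at each week. On lane 1 the tumors stood above the normal glands by 2.63, 3.95, 2.95 and 3.37 on the log2 scale at weeks 6, 8, 10 and 12. On lane 2 the differences were 3.40, 3.50, 3.40 and 3.63. Each lane held 1 or 2 libraries per group, so these values have no test of their own.

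Ranked by log2 fold change among all tested miRNAs, miR-31 took places 4, 2, 5 and 2 at the successive weeks. By p-value it was in place 15, 2, 3 and 1. Some of the miRNAs above it in fold change were scarce or variable, but miR-92b and miR-146b had a smaller SE than miR-31 at week 6. At that week the log2 differences above miR-31 were 3.86 for miR-1965, 3.55 for miR-92b (SE 0.22) and 3.09 for miR-146b (SE 0.18). The SE of miR-31 was 0.36, and miR-1965 stood at 0.848 CPM in normal glands. At week 8 only miR-9 stood higher, at 5.10 with an SE of 1.78 and an edgeR adjusted p of 0.0573, and its tumor and normal libraries overlapped. At week 10 the miRNAs above miR-31 were miR-92b at 3.27 and miR-466a, miR-466b and miR-466e at 3.68, 3.48 and 3.41. The last 3 belong to a repetitive family with closely related sequences, so that reads may be split between its members. At week 12 miR-9, which is expressed in the nervous system and known to promote metastasis, reached 5.57 (SE 1.30, edgeR adjusted p 0.0105). Among the miRNAs with a mean level at least that of miR-31, between 57 and 69 depending on the week, miR-31 had the highest log2 fold change at weeks 8, 10 and 12. At week 6 it was second to miR-146b, a regulator of NF-kB signaling, which was at 27982 CPM in tumors against 3289 CPM in normal glands.

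**Figure D2:**
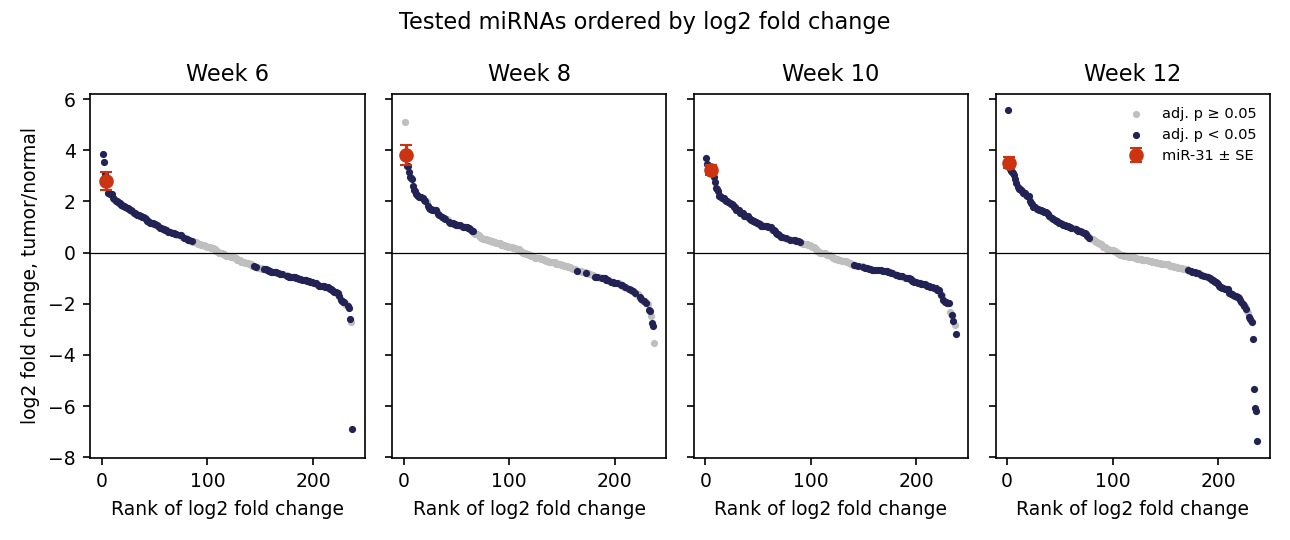
Log2 fold change of tumor against normal (y axis) by rank of that fold change (x axis) for the 237 tested miRNAs, in 1 panel per week. Dark points passed an edgeR adjusted p of 0.05 and grey points did not. The large point is miR-31 with its SE, at 2.79, 3.83, 3.23 and 3.52 at weeks 6, 8, 10 and 12, which is place 4, 2, 5 and 2 of each order.

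In order of mean level the groups were normal week 8, week 6, week 12 and week 10, followed by tumor week 6, 8, 10 and 12. Of the 7 steps between neighbours in this order, the step from normal week 10 to tumor week 6 passed the edgeR threshold in the fit of all libraries. It measured 2.46 on the log2 scale (SE 0.32, edgeR adjusted p 1.10e-05), and 42.2% of the tested miRNAs were called for that pair of groups. The steps among the normal groups measured 0.32, 0.30 and 0.03, with edgeR adjusted p of 0.759, 0.554 and 0.976, where 0.422%, 21.1% and 0% of miRNAs were called. The steps among the tumors measured 0.76 from week 6 to week 8, 0.02 from week 8 to week 10 and 0.28 from week 10 to week 12, with edgeR adjusted p of 0.328, 0.999 and 0.976. The tests of the tumor steps called 0 miRNAs. No step within a tissue type thus passed the edgeR threshold after adjustment over all tested miRNAs. Before adjustment, the step from tumor week 6 to week 8 had an edgeR p of 0.0214 (SE 0.30). The other neighbouring steps within a tissue type had unadjusted edgeR p of 0.304 to 0.960. The missing call for tumor week 6 to week 8 therefore does not show that these groups were alike.

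Over the longer interval from hyperplasia to late carcinoma the level in tumors rose. The mean went from 1736 to 3600 CPM, and the lowest late carcinoma library at 3338 CPM was above the highest hyperplasia library at 1992 CPM. The log2 difference was 1.05 (SE 0.30, 95% interval 0.41 to 1.70) with an edgeR adjusted p of 0.0387, and 7.59% of the tested miRNAs were called between these weeks. The call did not hold under every setting. With at least 10 counts required in every library the difference was 0.93 with an edgeR adjusted p of 0.0589. Without replicate 1, 2 or 3 of every group the difference was 1.13, 1.22 or 0.96, with edgeR adjusted p of 0.209, 0.187 and 0.123. A joint test over the 4 tumor weeks gave an edgeR adjusted p of 0.203 for miR-31. That test called 0 miRNAs, while 39 had an unadjusted p under 0.05 and DESeq2's likelihood-ratio test called 13, miR-31 among them at an adjusted p of 0.0485. The hyperplasia libraries held 2195 to 18074 CPM of skeletal muscle miRNAs, and the late carcinomas 172 to 665 CPM. Epithelial miRNAs summed to 57183 to 62454 CPM in hyperplasia and to 66895 to 80842 CPM in late carcinoma. The part of tissue content in the rise was not tested.

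In normal glands no difference between weeks passed the edgeR threshold after adjustment. The log2 difference from week 6 to week 12 was 0.30 (SE 0.30, 95% interval -0.34 to 0.94, edgeR adjusted p 0.554), where 21.1% of the tested miRNAs were called. The joint test over the normal weeks gave an edgeR adjusted p of 0.416, where 13.9% were called. The largest log2 difference between normal weeks was 0.65 from week 8 to week 10 (SE 0.30, 95% interval 0.006 to 1.29). Its edgeR p was 0.0452 before and 0.995 after adjustment, and 0% of miRNAs were called there. The week 8 normal glands had the lowest mean, 201 CPM, and the week 8 tumors were close to the week 10 tumors, at 2932 and 2962 CPM. The 14.2-fold difference of week 8 thus came with the lowest normal mean and not with the highest tumor mean. From week 6 to week 8 the log2 change was 0.76 in tumors and -0.32 in normal glands (SE 0.30 each).

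Whether the tumor-normal difference itself changed between weeks was tested with interaction contrasts. For miR-31 the edgeR p was 0.110 before and 0.938 after adjustment. That test called 0 miRNAs with edgeR, with 9 at an unadjusted p under 0.05, and 0 with DESeq2's likelihood-ratio test. From week 6 to week 12 the tumor-normal difference grew by 0.75 on the log2 scale (SE 0.43, 95% interval -0.15 to 1.65, edgeR adjusted p 0.426), and 0.422% of the tested miRNAs were called. Without replicate 1 of every group it was 0.27, without replicate 2 it was 0.63, and without replicate 3 it was 1.01, with no call in any of these. With 3 mice per group a change of the difference of up to 1.65 log2 units lies within this interval.

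Because epithelial miRNAs were also higher in the tumors, miR-31 was compared with them within each library. Of the 11 epithelial miRNAs, all passed the filter, and 9 were called higher in tumors at each week, when 29.1%, 21.9%, 32.9% and 29.1% of all tested miRNAs were. Their median log2 fold change lay between 1.79 at week 6 and 2.22 at week 12, beside -0.12 and -0.19 for all tested miRNAs at those weeks. The members called at every week were the 5 miRNAs of the miR-200 family, which repress the mesenchymal factors Zeb1 and Zeb2, the sensory and epithelial cluster of miR-183, miR-96 and miR-182, and miR-375. miR-205, a basal and myoepithelial miRNA, had log2 values from -0.01 to 0.53 and was called at no week. miR-203, a miRNA of differentiating squamous epithelium, was called lower at week 12 with -1.87 (edgeR adjusted p 0.0390), a call lost with library sizes only (0.0609) and with DESeq2's Wald test (0.0548). At each week miR-31 had a higher log2 fold change than every member of the list.

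The log2 level of miR-31 minus the mean log2 level of the 11 epithelial miRNAs is a ratio within a library and does not depend on how libraries are scaled. In the normal glands of week 6 it was -0.25, -1.34 and -2.13, and in those of week 8 it was -1.16, -1.41 and -2.12. Week 10 normal glands had -0.89, -1.06 and -0.96, and week 12 normal glands had -0.43, -1.48 and -0.35. The normal glands were thus below 0 throughout. Hyperplasia gave 0.04, 0.26 and -0.05, and adenoma gave 0.60, 0.83 and 0.07. Early carcinoma gave 0.38, 0.70 and 0.69, and late carcinoma gave 0.87, 0.90 and 0.93. All 12 tumors were above all 12 normal glands, with the closest approach at week 6, where a hyperplasia sample at -0.05 stood next to a normal gland at -0.25. The mean tumor-normal difference was 1.65, with a two-sided exact permutation p of 1.25e-05 for labels exchanged within weeks, the smallest that the design can give. At the single weeks it was 1.32, 2.06, 1.56 and 1.65, each with the smallest exact p that 3 against 3 allows, 0.1. Against single members the difference ranged from 0.80 for miR-200b to 3.93 for miR-203, so that miR-31 increased more than each of them over the 4 weeks together. The widest differences were those to miR-203 and miR-205, at 3.93 and 2.94, which were not called higher in tumors, and the next was 1.70 for miR-141. Against miR-200b, miR-200c, miR-429, miR-183, miR-96 and miR-375, all tumors lay above all normal glands at 3 of the 4 weeks. Levels of different miRNAs in small RNA libraries also carry ligation bias, so the sign of a value within a library has no meaning of its own, while its difference between groups does.

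**Figure D3:**
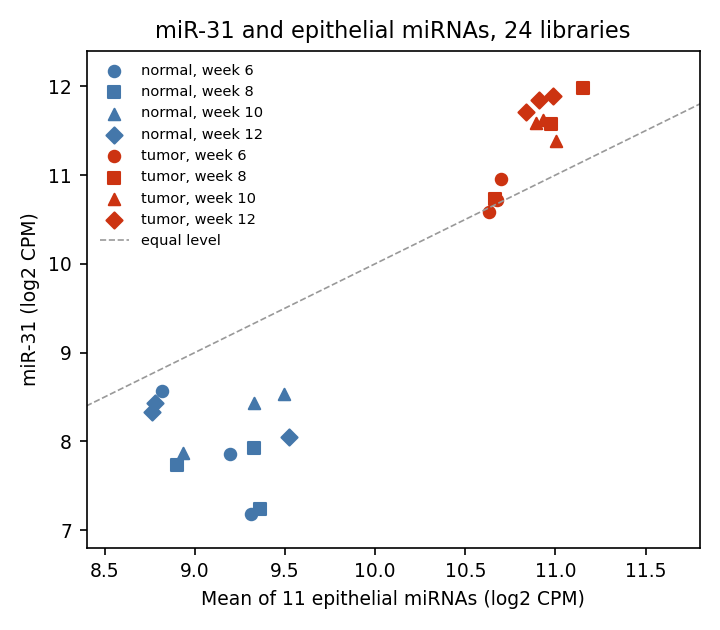
Log2 CPM of miR-31 (y axis) against the mean log2 CPM of the 11 epithelial miRNAs (x axis), with 1 point per library, color for tumor or normal gland and shape for the week. The tumors lie near or above the dashed line of equal level, with differences of -0.05 to 0.93, and the normal glands lie below it, with -2.13 to -0.25.

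In the most spread tumor group, the adenomas of week 8, miR-31 and the epithelial sum had the same order. Replicate 2, with the highest miR-31 level of 4043 CPM, had the highest epithelial sum of the series, 98544 CPM. Replicate 1, with 3052 CPM of miR-31, had 75752 CPM of epithelial miRNAs, and replicate 3, with 1701 CPM, had 69700 CPM. Endothelial miR-126 did not follow the reverse order, at 6568 CPM in replicate 2, 15107 CPM in replicate 1 and 13408 CPM in replicate 3. The order was also the same in the week 6 tumors and the week 10 normal glands. It was reversed in the week 10 tumors and in the normal glands of weeks 6 and 12, and mixed elsewhere. In the week 10 tumors miR-31 stood at 2669, 3075 and 3143 CPM and epithelial miRNAs at 80483, 79983 and 70929 CPM. The part of epithelial content in these spreads was not tested. Leaving out single replicates kept the week 8 log2 difference between 3.56 and 4.17.

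miR-31 is grouped with miRNAs reported to act on metastasis, and such lists were taken from general knowledge of breast cancer. Of the 6 miRNAs listed as promoting metastasis, all passed the filter. None was called higher at weeks 6 and 8, when 29.1% and 21.9% of all tested miRNAs were, and miR-9 was the member called higher at weeks 10 and 12, with log2 values of 2.51 and 5.57. Its call of week 10 was lost in a single edgeR fit of all libraries (adjusted p 0.104), while at week 8 it was gained there (0.00683). miR-10b, which acts downstream of Twist in human cells, was called lower at all 4 weeks, from -0.91 at week 6 to -2.51 at week 12. miR-103, which targets Dicer, was also called lower at each week, with -0.66 to -1.21. At week 6 the calls of miR-10b and miR-103 fell from 2 to 0 without tumor replicate 2 and to 1 without tumor replicate 1. miR-21, a widely over-expressed cancer miRNA, had values from -0.18 to 0.32, and with miR-155 and miR-107 it was called at no week. The share of all tested miRNAs called lower was 29.5%, 13.5%, 27.4% and 21.5% at weeks 6, 8, 10 and 12, and with the replicate number as a block it rose to 28.7% at week 8.

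Of the 12 miRNAs listed as suppressing metastasis, 11 passed the filter. The myogenic miR-206 did not, with 75 counts summed over the series, of which normal glands gave 64. At weeks 6, 8 and 10, 6 members were called higher, and at week 12 there were 7, where 29.1%, 21.9%, 32.9% and 29.1% of all tested miRNAs were called higher at the successive weeks. These were the 5 miRNAs of the miR-200 family, which the epithelial list also holds, miR-146b, and at week 12 the p53 target miR-34a with 1.15. miR-146b, at log2 values of 3.09 to 3.37, was the listed miRNA nearest to miR-31 in fold change. Its relative miR-146a was called lower at weeks 10 and 12, with -0.73 and -0.80. Endothelial miR-126 was called lower at every week, from -0.67 to -1.57, and miR-335 at week 10, with -1.98. At week 8 miR-335 had -1.84 with an edgeR adjusted p of 0.0583, which passed under several alternatives, among them the replicate block with -1.60 (edgeR adjusted p 3.83e-04). The call of miR-126 was lost at week 6 without tumor replicate 1 or 3 and with the classic exact test of edgeR (adjusted p 0.0512), and at week 8 without normal replicate 1. The median of the suppressing list was 1.48, 1.69, 1.66 and 1.78 at the 4 weeks, and that of the promoting list was -0.19, -0.24, -0.17 and -0.52. The members of both lists thus went in both directions, and miR-31 was above all 17 members that passed the filter other than miR-146b at week 6 and miR-9 at weeks 8 and 12.

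**Figure D4:**
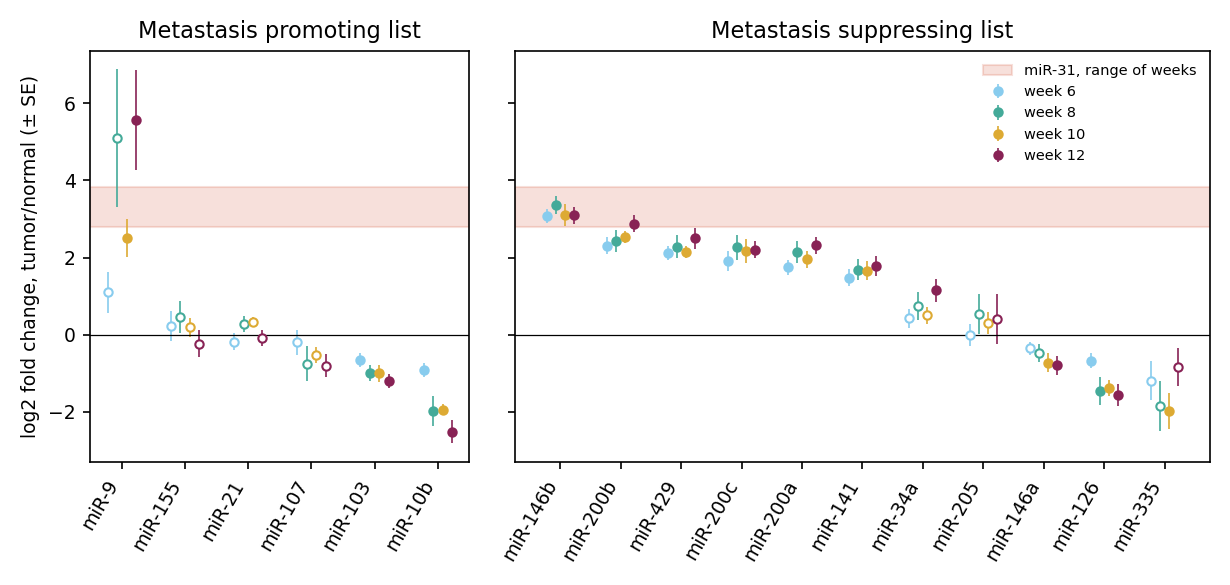
Log2 fold change of tumor against normal (y axis, bars are ± SE) of the metastasis promoting and suppressing miRNAs that passed the filter (x axis), with 1 color per week. Filled points passed an edgeR adjusted p of 0.05 and open points did not. The shaded band is the range of miR-31 over the weeks, 2.79 to 3.83, and the points inside or above it are those of miR-146b, of miR-9 at weeks 8 and 12 and of miR-200b at week 12.

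The miRNAs whose level followed miR-31 most closely were found by Pearson's correlation of log2 CPM over the 24 libraries, among all tested miRNAs. These points fall into tumors and normal glands and share their library scaling, so the coefficients mainly describe the tumor-normal difference. The 5 highest were miR-23b and miR-27b with 0.98, and miR-92b, miR-146b and miR-200c with 0.97. Of these, 4 had mature sequences in the RefSeq table, and they are printed to show that each has a seed other than that of miR-31 (bases 2 to 8, in capitals).
miR-27b-3p: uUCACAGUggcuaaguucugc
miR-92b-3p: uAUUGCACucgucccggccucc
miR-146b-5p: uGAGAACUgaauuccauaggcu
miR-200c-3p: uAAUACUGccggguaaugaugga
miR-23b and miR-27b are encoded next to each other and made from a shared transcript, and miR-27b-3p lies on chromosome 13, away from miR-31 on chromosome 4. Within the 12 tumors the correlation with miR-31 was 0.93 for miR-23b and 0.92 for miR-27b, against 0.76 for miR-92b, 0.50 for miR-146b and 0.59 for miR-200c. Within the 12 normal glands it was 0.68 for miR-23b and 0.48 for miR-27b. The log2 fold change of miR-23b was 1.85, 2.21, 2.12 and 2.02 at weeks 6, 8, 10 and 12, which was smaller than that of miR-31 at each week.

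The lowest correlations over the 24 libraries were those of miR-145 and miR-130a, both at -0.96, and of miR-10b at -0.94. miR-145 is a smooth muscle and myoepithelial miRNA. miR-10b, which is encoded in a Hox gene cluster, correlated with miR-31 at -0.88 within the tumors and at -0.04 within the normal glands. When the group means were removed, the highest correlations of the remaining deviations were those of miR-23b with 0.73, miR-1937a with 0.69, miR-484 with 0.68, miR-27a with 0.66 and miR-128 with 0.63. miR-23b was the miRNA in common between both orders. miR-27a followed miR-31 within groups although its correlation over all libraries was -0.50.

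The nearest other miRNA of the table on chromosome 4 was miR-491, 0.788 Mb away on the side of lower coordinates, which did not pass the filter. On the other side it was miR-872, 5.78 Mb away. The log2 fold change of miR-872 by week was -0.74, -0.36, -0.44 and -0.36, and the value of week 6 was called lower with an edgeR adjusted p of 0.0449, a call that was lost with the edgeR classic exact test (0.0823), with no filter (0.0910) and with the replicate block (0.0718). The closest tested neighbour thus did not share the higher level of miR-31 in tumors.

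The seed of miR-31-5p pairs with the letters TCTTGCC in a transcript. The 3′ untranslated regions of 9 genes known as miR-31 targets from human or mouse work were searched for these letters on the sense strand, in the longest annotated region per mouse gene of the mm9 annotation. The letters were found in 3 of the 9, and in 2060 of 19915 such regions of any length over all protein-coding genes, or 10.3%. For each of these genes 1 match is shown with the 7 pairing letters in capitals, and a match followed by a was preferred.
Itga5: atgcatctttggTCTTGCCaga
Fzd3: agtgagatgtgaTCTTGCCaaa
Hif1an: aatggactggacTCTTGCCatg
Itga5 encodes an integrin subunit that binds fibronectin, Fzd3 a Wnt receptor and Hif1an an inhibitor of the hypoxia factor. Itga5 and Fzd3 had 1 match each, which is followed by a, the letter opposite the first base of the miRNA. Hif1an had 2 matches, of which 1 is followed by a, and that 1 is shown. The letters were not in the regions used for Rhoa, Rdx, Wasf3, Mprip, Mmp16 and Lats2. A match describes the letters only, and the levels of these messenger RNAs were not analysed here.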

How the data were processed

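Small RNA libraries (Illumina TruSeq, 1 per mouse) of 12 mammary tumors and 12 normal glands were used. The authors removed barcodes and adaptors, aligned reads of mature miRNA length with Bowtie, and deposited raw counts per miRNA of reads overlapping a miRBase entry, without normalization. The entries do not name an arm of the hairpin. The study's methods name mm10, and the submitters' processing notes mm9. The replicates are different mice. Coordinates and the untranslated regions come from the mm9 GENCODE annotation or, where said, from RefSeq on GRCm38.p6.

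edgeR 4.0.16 (R 4.3.3) kept 237 of 364 miRNAs with a count by filterByExpr over 24 libraries and 8 groups. Each week's 6 libraries were compared with TMM and the quasi-likelihood test, and a Benjamini-Hochberg adjusted p-value under 0.05 over all 237 was called. Weeks, neighbouring groups and interactions were tested in a fit of all 24 libraries. The SE is the log2 difference divided by the square root of F. Log2 CPM values used a prior count of 2. Replicate numbers are shared between tumors and normal glands, and no label or method says what they mark. Deviations from the group means correlated above 0.1 in all 9 equal-numbered pairs of weeks 6, 8 and 10 (0.196 to 0.816), and in 1 of 3 at week 12. Some pairs of unequal number did so too. At week 10, tumor replicate 1 had 0.583 with normal replicate 2 and 0.489 with normal replicate 1. Of the 12 tumors, 9 correlated best with the normal gland of their number. Equal-numbered libraries of a week also shared a sequencing lane, so the data alone do not settle whether they are pairs. The main fit has no block, and the fit with the replicate number as a block is the alternative. The ratio to epithelial miRNAs was tested by exact permutation within weeks. In data simulated for week 12, with 60 of 237 miRNAs changed, the weekly test recovered 37%, 89.5% and 93% of log2 changes of 1, 2 and 3.

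Named miRNAs were miR-31, the listed miRNAs, up to 5 with a higher log2 fold change per week, the 5 most and 3 least correlated over all libraries, the 5 most correlated within groups, and the chromosome 4 neighbours. The members and lists were chosen with earlier results of these data known, and the target genes were chosen from general knowledge, of which 1 is not reported here. Alternatives were DESeq2 1.42.0 size factors and tests, library sizes only, TMM without the 5 most counted miRNAs, edgeR's classic exact test, a minimum of 10 counts in each library or no filter, a single fit, replicate or lane terms, a fold threshold, thinning to the smallest total, other forms of the epithelial ratio, and each replicate left out. The comparison of tumor weeks 6 and 12, the removal of libraries high in muscle miRNAs and DESeq2's likelihood-ratio test were added after seeing the data. Python 3.11.15 read sequences and drew the plots.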

Additional observations from a re-analysis of the deposited data

How the results depend on the processing

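The weekly log2 difference of miR-31 stayed past the threshold in its direction under every alternative run, with 2.65 to 2.89, 3.66 to 3.86, 3.18 to 3.26 and 3.32 to 3.69 for weeks 6, 8, 10 and 12. With each tumor or normal replicate left out it ranged from 2.51 to 3.21, 3.56 to 4.17, 2.98 to 3.29 and 3.38 to 3.61, with a highest edgeR adjusted p of 0.0119. The ratio of miR-31 to epithelial miRNAs ranged from 1.22 to 2.23 between forms of the ratio, and the step from normal week 10 to tumor week 6 stayed the only 1 of 7 past the threshold. The change from week 6 to week 12 within tumors lost its call with at least 10 counts in every library (0.93, adjusted p 0.0589) and without any 1 replicate number (0.96 to 1.22), where fewer libraries were fitted. The joint test over tumor weeks passed under DESeq2's likelihood-ratio test (adjusted p 0.0485), and the cause was not tested.

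Among listed miRNAs, miR-205 at week 6 turned from -0.01 to 0.026 with DESeq2 size factors and with the Wald test of DESeq2, to 0.067 with TMM without the 5 most counted miRNAs, 0.084 with at least 10 counts in every library, 0.061 with the replicate block, 0.059 with the lane term and 0.10 with thinning. miR-21 at week 12 turned from -0.09 to 0.065 with library sizes only. Neither was called in any of these. Members of the promoting list called lower at week 6 went from 2 to 0 without tumor replicate 2, and those of the suppressing list called lower went from 1 to 2 at week 8 with DESeq2's Wald test. miR-203 at week 12 lost its call without any 1 tumor replicate and with library sizes only.

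With the replicate block the log2 difference of miR-31 was 2.89, 3.77, 3.24 and 3.54 at weeks 6, 8, 10 and 12, all past the threshold, the difference of week 12 minus that of week 6 was 0.65, and the exact p of the epithelial ratio was 4.88e-04. The block raised the miRNAs called lower at week 8 from 32 to 68 and changed the calls of miR-335 at week 8 and miR-872 at week 6, and no other call of miR-31 or of the epithelial and metastasis lists. With 1 replicate number left out, the difference of week 12 minus that of week 6 ranged from 0.27 to 1.01. The number of mice limits the precision of miR-31 more than its depth of at least 261 counts per library.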

Other observations

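By the study's rule for transitions, which calls a step an increase or decrease when the change of the signed tumor-normal fold lies more than 0.4 SD from the mean over the 364 miRNAs with a count, miR-31 was classed as an increase from week 6 to week 8, a decrease from week 8 to week 10 and no change from week 10 to week 12. The folds behind these classes were 7.07, 14.3, 9.36 and 11.2. The tumor levels themselves were 1736, 2932, 2962 and 3600 CPM at the same weeks, and the normal levels 251, 201, 316 and 310 CPM, so the decrease from week 8 to week 10 came with a higher normal mean and a tumor mean that moved from 2932 to 2962 CPM.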
